A study of Mus musculus with 6 samples.

Results

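Interferon-stimulated genes are the targets that cells switch on when an interferon binds its receptor. Here they were taken by gene symbol from a list of 41 established targets of type I and type II interferon, and all 41 were found among the 54532 genes of the deposited liver count table. Every one of the 41 also held enough counts to be among the 15449 genes that were tested. RNA-Seq was performed on whole livers of 6 mice, 3 Control and 3 g*Spns1*-cKO, with 1 library per liver. SPNS1 is a lysosomal transporter of lysolipids, and the study asked how its loss alters lipid metabolism and gene expression. According to the methods, g*Spns1*-cKO mice were *Spns1* fl/fl mice carrying Rosa26Cre-ERT2, a tamoxifen-activated Cre expressed throughout the body, in which 3 intraperitoneal tamoxifen injections of 50 mg/kg on postnatal days 11, 13 and 15 removed exon 3 of *Spns1* in all tissues. The methods describe Control mice as *Spns1* fl/fl littermates without saying whether they received tamoxifen, whereas the sample labels call them wild type. All mice had a C57BL/6 background, and the age at harvest and the sex of the 6 mice are not given in the sources used here.

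Type I interferons signal through a receptor on nearly every cell and activate a complex containing STAT2 and IRF9 that binds interferon-stimulated response elements (ISREs). Type II interferon, made by T and NK cells, acts through gamma-activated sequences (GAS) and induces IRF1 and many GTPases. In the liver, hepatocytes, Kupffer cells and endothelial cells all respond, so whole-tissue RNA sums the responses of many cell types, and in these bulk samples fewer cells of a type and less RNA per cell cannot be told apart.

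The targeted gene was examined first. Control livers held 1008, 1562 and 875 counts of *Spns1*, and g*Spns1*-cKO livers held 642, 1175 and 698. As counts scaled to a common library size (CPM) these were 40.4 ± 8.98 and 22.1 ± 7.40 (mean ± SD, n = 3), with a log2 fold change of -0.87 ± 0.25 (SE, edgeR adjusted p = 0.03), and the groups did not overlap. This difference did not pass without TMM scaling (-0.43, adjusted p = 0.213), with upper-quartile scaling (-0.74, 0.0635), or without Control mouse 2 (-0.68, 0.0785) or g*Spns1*-cKO mouse 1 (-0.74, 0.091) or 3 (-0.74, 0.083). The counts cover the whole gene rather than exon 3 alone. Library totals ranged from 30350002 to 35295611 counts. The trimmed-mean (TMM) scaling factors were 0.834 to 0.873 in Control and 1.16 to 1.18 in g*Spns1*-cKO livers, so the direction of modest changes depended on the scaling. Without TMM, log2 fold changes over all genes tested had a median of 0.457 rather than 0.0138, and the shares of genes called higher and lower were 47.2% and 6.28%. As a check of the tissue, *Alb* held 1346605 to 2175970 counts in every library.

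The regulatory letters upstream of the genes are shown first because the members are defined by their response to interferon. Windows of 250 bases before the start were taken from RefSeq (GRCm38.p6) for 30 of the 41 genes, with none in the table for *Usp18*, *Oas2*, *Mx1*, *Mx2*, *Iigp1*, *Ifi27*, *Ifi27l2a*, *Dhx58*, *Rtp4*, *Parp9* and *Parp14*. Each window was searched on both strands for the ISRE core GAAANNGAAA and for the GAS letters TTCNNNGAA, which can overlap each other. The ISRE core was found in 16 of the 30 windows (53.3%), against 2.98% of the 32851 windows of all genes, and the GAS letters in 7 of 30 (23.3%) against 7.02%. Among the genes tested as higher in g*Spns1*-cKO livers the ISRE core was present in 4 of 10 windows, among those lower in 0 of 2, and among those past neither threshold in 12 of 18. The ISRE core was thus present upstream of genes that rose and of genes that passed in neither direction. The last 125 bases before the start of 8 genes are printed 5′ to 3′ on the strand of the gene. ISRE and GAS matches are in capitals. The genes include *Ifit1* with *Ifit2* and *Gbp2* with *Gbp7*, neighbours whose RNA levels moved apart.
*Irf1* (chr11:53769889-53770013, plus strand): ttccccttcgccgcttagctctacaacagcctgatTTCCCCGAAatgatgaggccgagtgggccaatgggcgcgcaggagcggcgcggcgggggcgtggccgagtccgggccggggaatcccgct
*Isg15* (chr4:156200819-156200943, minus strand): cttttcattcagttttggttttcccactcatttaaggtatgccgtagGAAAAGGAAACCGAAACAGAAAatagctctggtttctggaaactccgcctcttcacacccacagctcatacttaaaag
*Ifit1* (chr19:34640764-34640888, plus strand): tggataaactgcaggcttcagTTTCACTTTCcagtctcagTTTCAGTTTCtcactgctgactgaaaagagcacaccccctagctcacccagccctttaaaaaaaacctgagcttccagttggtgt
*Ifit2* (chr19:34550569-34550693, plus strand): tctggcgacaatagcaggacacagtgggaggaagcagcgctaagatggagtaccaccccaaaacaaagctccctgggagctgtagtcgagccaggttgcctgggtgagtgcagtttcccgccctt
*Rsad2* (chr12:26456453-26456577, minus strand): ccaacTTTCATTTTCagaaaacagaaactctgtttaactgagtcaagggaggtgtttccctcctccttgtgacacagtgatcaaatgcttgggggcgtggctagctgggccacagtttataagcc
*Gbp2* (chr3:142620538-142620662, plus strand): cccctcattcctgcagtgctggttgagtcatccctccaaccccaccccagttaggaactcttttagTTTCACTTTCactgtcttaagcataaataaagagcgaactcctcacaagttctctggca
*Gbp7* (chr3:142530211-142530335, plus strand): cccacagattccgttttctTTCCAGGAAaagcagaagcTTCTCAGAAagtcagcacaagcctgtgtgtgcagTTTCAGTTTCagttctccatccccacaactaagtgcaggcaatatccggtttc
*Igtp* (chr11:58199431-58199555, plus strand): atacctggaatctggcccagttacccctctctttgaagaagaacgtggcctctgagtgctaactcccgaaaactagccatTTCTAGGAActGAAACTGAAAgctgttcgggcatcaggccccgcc
*Isg15* carried 3 overlapping ISRE matches that began 78, 72 and 66 bases before its start, and *Ifit1* carried 2, at 104 and 85 bases. *Ifit2*, which lies in the same cluster as *Ifit1*, had neither in the bases shown and only 1 GAS match farther out, at 241 bases. *Gbp2* had a single ISRE match at 59 bases, and *Gbp7*, in the same cluster, had 1 ISRE match at 53 bases and 2 GAS matches. *Irf1* had 1 GAS match at 90 bases and no ISRE match, *Rsad2* had 1 ISRE match at 120 bases, and *Igtp* had 1 of each, at 34 bases for the ISRE and 45 for the GAS letters. A match of letters is not evidence of binding, and an absent match says nothing of elements outside the window.

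Interferon-stimulated genes did not move as a block in the g*Spns1*-cKO livers. Of the 41 genes, 12 were higher and 7 lower than in Control in the quasi-likelihood test of edgeR (p-values adjusted by Benjamini and Hochberg over all genes tested, threshold 0.05), and 22 passed in neither direction. Without TMM scaling the counts were 20 and 1, beside 47.2% and 6.28% of all genes tested. With upper-quartile scaling they were 14 and 3, beside 26.6% and 14.5%. With TMM scaling, 21.3% of all genes tested were called higher and 20.5% lower. The corresponding shares of the interferon-stimulated genes were 29.3% and 17.1%, both near that background. In the same 12 genes every g*Spns1*-cKO liver lay above every Control liver, and in the same 7 every one lay below, whereas the groups overlapped in the other 22. Such complete separation upward was seen in 27.1% of all genes tested and downward in 26.9%. The median log2 fold change was 0.188 (quartiles -0.292 and 0.774) against 0.0138 (-0.371 and 0.531) over all genes tested. The increases were led by *Gbp2*, *Ifit2*, *Usp18* and *Samd9l*, and the decreases by *Ifi27* and *Iigp1*. Of the 12 increases, 8 (*Gbp2*, *Ifit2*, *Usp18*, *Samd9l*, *Cmpk2*, *Oasl2*, *Trim30a* and *Ddx58*) were past the threshold in every other test, scaling, filter and omission of a single mouse that was run. *Ifi27* was the only decrease of which that was true.

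**Figure D1:**
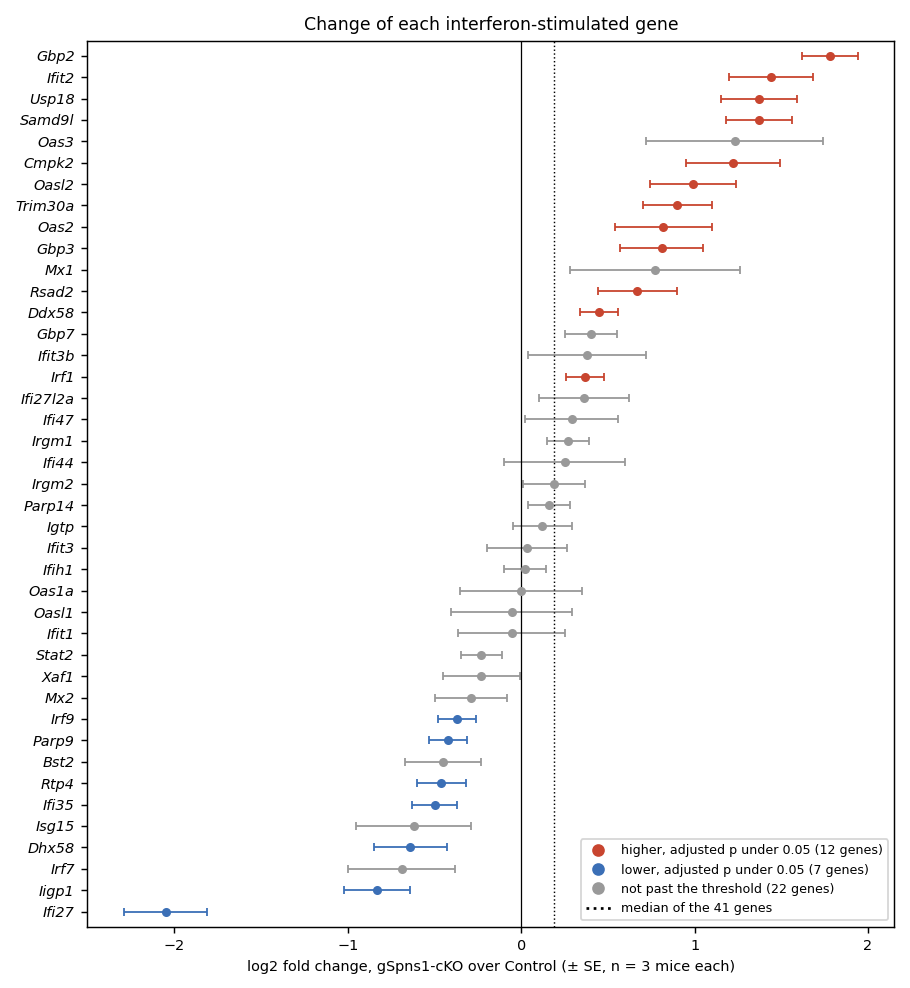
Log2 fold change (g*Spns1*-cKO over Control, x axis) of each of the 41 genes with its SE (bars; n = 3 mice per group), coloured by whether it passed an adjusted p of 0.05. The genes spread from -2.05 for *Ifi27* to 1.78 for *Gbp2* around a median of 0.188 (dotted line). Of the genes that passed, *Irf9* and *Parp9* changed sign without TMM scaling.

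Among the transcription factors that carry the interferon signal to DNA, 1 of 4 was higher and 1 lower. *Irf1*, the primary responder to type II interferon, was at 20.5, 21.3 and 24.1 CPM in Control and 30.7, 27.3 and 26.9 CPM in g*Spns1*-cKO livers. Its groups did not overlap, and the log2 fold change was 0.37 ± 0.11 (SE, edgeR adjusted p = 0.0246). *Irf9*, the DNA-binding subunit of the type I complex, was at 31.2, 34.3 and 35.6 CPM in Control and 28.8, 24.2 and 25.3 CPM in g*Spns1*-cKO livers. The log2 fold change of *Irf9* was -0.37 ± 0.11 (edgeR adjusted p = 0.022), again without overlap, but it was 0.07 without TMM scaling and did not pass with upper-quartile scaling (-0.24, adjusted p = 0.0924). Its partner *Stat2* was at 54.4 to 69.0 CPM in Control and 47.8 to 56.3 CPM in g*Spns1*-cKO livers, which overlapped (log2 fold change -0.23 ± 0.12, edgeR adjusted p = 0.159). *Irf7*, which amplifies type I interferon production, showed 25.7, 41.7 and 48.3 CPM against 33.0, 20.4 and 18.6 CPM. The first g*Spns1*-cKO mouse overlapped the Control range, and the log2 fold change of -0.69 ± 0.31 did not pass (edgeR adjusted p = 0.128). The call of *Irf1* was lost on leaving out Control mouse 1 or 2 or g*Spns1*-cKO mouse 1 or 3 (adjusted p 0.0531 to 0.0875). That of *Irf9* was lost without Control mouse 2 or 3 or g*Spns1*-cKO mouse 2 or 3 (0.0524 to 0.0854), whereas *Irf7* passed without Control mouse 1 (-0.92, adjusted p = 0.022) or g*Spns1*-cKO mouse 1 (-0.99, 0.0252) and in DESeq2 (-0.69, 0.0236).

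Of the 3 cytosolic RNA sensors of the RIG-I family, 1 was higher, 1 lower and 1 past neither threshold. *Ddx58*, which encodes RIG-I, was at 20.1, 19.1 and 18.9 CPM in Control livers and rose to 29.0, 25 and 25.6 CPM in g*Spns1*-cKO livers. The groups were separate, with a log2 fold change of 0.45 ± 0.11 (SE, edgeR adjusted p = 0.00752). *Dhx58*, which encodes LGP2, a regulator of the other two sensors, went from 9.39, 12.3 and 8.34 CPM to 8.23, 5.84 and 5.19 CPM, also without overlap (log2 fold change -0.64 ± 0.21, edgeR adjusted p = 0.0321). *Ifih1*, which encodes the long-RNA sensor MDA5, overlapped at 25.1 to 27.0 CPM in Control and 23.4 to 30.2 CPM in g*Spns1*-cKO livers (log2 fold change 0.02 ± 0.12), but it passed as higher without TMM scaling (0.47, adjusted p = 0.00696). The decrease of *Dhx58* did not pass with upper-quartile scaling (-0.52, edgeR adjusted p = 0.0696) or without TMM (-0.21, 0.445). It was also lost without Control mouse 2 (-0.47, adjusted p = 0.123), g*Spns1*-cKO mouse 2 (-0.58, 0.0841) or g*Spns1*-cKO mouse 3 (-0.51, 0.122).

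Of the 2 genes of the ISG15 modification pathway, *Usp18* was higher and *Isg15* did not pass. *Usp18* (chr6:121245906-121270917, plus strand, mm10) encodes the protease that removes the ubiquitin-like protein ISG15 from its targets and also damps signalling at the type I receptor. It was at 4.05, 7.01 and 5.41 CPM in Control and 17.2, 11.2 and 14.1 CPM in g*Spns1*-cKO livers, with no overlap (log2 fold change 1.37 ± 0.22, edgeR adjusted p = 0.0011). *Isg15*, which encodes the modifier itself, was at 4.27, 7.73 and 6.44 CPM in Control and 6.06, 2.71 and 3.26 CPM in g*Spns1*-cKO livers. Those groups overlapped and the log2 fold change of -0.62 ± 0.33 was not past the threshold (edgeR adjusted p = 0.162). It was past it without g*Spns1*-cKO mouse 1 (-1.05, adjusted p = 0.0109) and when all genes with at least 1 count in any library were kept (-0.63, 0.0191). The ratio of *Usp18* to *Isg15* counts within a library, which no scaling can alter, was 0.950, 0.908 and 0.840 in Control and 2.84, 4.13 and 4.34 in g*Spns1*-cKO livers, 4.13-fold higher on average. This and the other pairs, and which gene was the numerator, were chosen with the changes of the genes known, so the ratios are a description and were not tested.

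The IFIT genes encode proteins that bind viral RNA and lie together within 99.3 kb of chromosome 19. Of the 4, *Ifit2* (chr19:34550694-34576419, plus strand, mm10) passed the test. It was at 2.60, 1.59 and 2.77 CPM in Control and 7.26, 5.89 and 5.65 CPM in g*Spns1*-cKO livers, again without overlap (log2 fold change 1.44 ± 0.24, edgeR adjusted p = 0.00114). *Ifit1* was at 3.13 to 5.69 CPM in Control and 2.66 to 5.89 CPM in g*Spns1*-cKO livers, and its log2 fold change was -0.06 ± 0.31 (edgeR adjusted p = 0.9). *Ifit3* (0.03 ± 0.23) and *Ifit3b* (0.38 ± 0.34) overlapped between groups too. Of all 50-base words in *Ifit3* transcripts 51.2% also occur in another gene, mostly *Ifit3b*, so how reads were divided between those is uncertain. No such word of *Ifit2* was shared. *Ifit2* to *Ifit1* count ratios were 0.830, 0.340 and 0.486 in Control and 1.23, 2.22 and 1.28 in g*Spns1*-cKO livers.

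The oligoadenylate synthetase (OAS) family, which makes the second messenger that activates RNase L, had 2 genes higher of 5 and a median log2 fold change of 0.82. *Oasl2*, an OAS-like protein, was at 2.17, 4.25 and 3.6 CPM in Control and 7.12, 7.27 and 5.52 CPM in g*Spns1*-cKO livers (log2 fold change 0.99 ± 0.25, edgeR adjusted p = 0.00995). *Oas2* went from 1.64, 1.98 and 1.86 CPM to 3.92, 3.65 and 2.11 CPM (0.82 ± 0.28, edgeR adjusted p = 0.0382). Both were separate between groups, although the third g*Spns1*-cKO mouse sat just above the Control range for *Oas2*. *Oas3* had the largest log2 fold change of the family, 1.23 ± 0.51, but at 0.285 to 0.909 CPM in Control and 0.712 to 2.22 CPM in g*Spns1*-cKO livers it overlapped and did not pass (edgeR adjusted p = 0.0777). *Oasl1* (-0.05 ± 0.35) and *Oas1a* (0.00 ± 0.35) also overlapped, and 57.6% of the 50-base words of *Oas1a* recur in other genes of its family. The *Oas2* call was lost on omission of any single mouse other than the third g*Spns1*-cKO mouse (adjusted p 0.0683 to 0.112) and with limma-voom (0.0671), while *Oas3* passed without that mouse (1.56, 0.0368) and without TMM scaling (1.67, 0.0182).

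*Rsad2* and *Cmpk2* are neighbours within 37.1 kb of chromosome 12, and both rose. *Rsad2* encodes viperin, which makes a chain-terminating nucleotide from CTP, and *Cmpk2* encodes a nucleotide kinase that helps supply CTP. *Rsad2* was at 2.88, 3.41 and 3.52 CPM in Control and 6.64, 4.01 and 4.96 CPM in g*Spns1*-cKO livers (log2 fold change 0.67 ± 0.23, edgeR adjusted p = 0.0371). *Cmpk2* was at 1.60, 2.47 and 2.57 CPM in Control and 6.37, 3.75 and 5.39 CPM in g*Spns1*-cKO livers (1.22 ± 0.27, edgeR adjusted p = 0.00476). In both genes the first g*Spns1*-cKO mouse was highest and no mouse crossed between groups. *Mx1* and *Mx2*, of a family of dynamin-like GTPases known for trapping viral nucleocapsids, did not pass. *Mx2* is annotated as a polymorphic pseudogene. Whether either gene made a working protein in these mice was not examined. *Mx1* was at 0.213 to 0.942 CPM in Control and 0.782 to 1.2 CPM in g*Spns1*-cKO livers, and *Mx2* at 3.27 to 3.95 and 2.67 to 3.38 CPM. The *Rsad2* call was lost without any single mouse other than the second g*Spns1*-cKO mouse (adjusted p 0.0687 to 0.14), and limma-voom gave an adjusted p of 0.051.

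The guanylate-binding proteins (GBPs) and immunity-related GTPases (IRGs), which coat the vacuoles of intracellular microbes, held both a leading increase and a leading decrease. *Gbp2* (chr3:142620602-142638008, plus strand, mm10) was at 3.24, 3.44 and 3.91 CPM in Control and 13.2, 11 and 12.3 CPM in g*Spns1*-cKO livers. This 3.44-fold increase (log2 fold change 1.78 ± 0.16, edgeR adjusted p = 3.19e-05) was the largest among the 41 genes, and the groups were far apart. *Gbp3* followed, with 2.81, 4.51 and 4.74 CPM in Control and 8.87, 6.52 and 5.80 CPM in g*Spns1*-cKO livers (0.81 ± 0.24, edgeR adjusted p = 0.0214). *Gbp7* lies with both within 108 kb of chromosome 3 and did not pass, at 8.35 to 10.6 CPM in Control and 10.6 to 13.6 CPM in g*Spns1*-cKO livers (0.40 ± 0.15, edgeR adjusted p = 0.0573). *Iigp1*, a highly expressed IRG, went the other way, from 184, 193 and 244 CPM to 151, 100 and 99.3 CPM. These groups did not overlap, and the log2 fold change was -0.83 ± 0.19 (edgeR adjusted p = 0.00607), or -0.38 without TMM scaling (adjusted p = 0.0904). The 4 other IRG genes, *Igtp*, *Irgm1*, *Irgm2* and *Ifi47*, overlapped between groups, with log2 fold changes of 0.12 to 0.29. Without TMM scaling *Igtp* (0.56, adjusted p = 0.0175), *Irgm1* (0.72, 0.000497), *Irgm2* (0.63, 0.018) and *Gbp7* (0.84, 0.00101) passed as higher. Within each library the *Irgm1* to *Iigp1* count ratio was 0.171, 0.158 and 0.155 in Control and 0.290, 0.370 and 0.396 in g*Spns1*-cKO livers. With upper-quartile scaling *Gbp7* (0.53, adjusted p = 0.0167) and *Irgm1* (0.40, 0.016) passed. *Gbp3* did not pass without Control mouse 1 (adjusted p = 0.0675) or g*Spns1*-cKO mouse 1 (0.0701). *Igtp* and *Irgm2* share 162 exon bases, which leaves their reads partly interchangeable.

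Of the 11 remaining effectors, 2 rose and 4 fell. *Ifi27* (chr12:103434211-103440239, plus strand, mm10), which encodes a small hydrophobic interferon-induced protein, fell most of all 41 genes, from 149, 201 and 235 CPM in Control to 62.9, 38.1 and 40.1 CPM in g*Spns1*-cKO livers. Control levels were 4.14-fold higher, with a log2 fold change of -2.05 ± 0.24 (SE, edgeR adjusted p = 0.000417) that was still -1.60 without TMM scaling (adjusted p = 0.000616). Its neighbour *Ifi27l2a*, of the same protein family and within the same 9.47 kb of chromosome 12, overlapped between groups at 4.73, 6.95 and 6.52 CPM against 11.1, 6.57 and 5.80 CPM (0.36 ± 0.26, edgeR adjusted p = 0.29), although it passed without TMM scaling (0.80, 0.0233). The count ratio of *Ifi27l2a* to *Ifi27* was accordingly 0.0318, 0.0346 and 0.0278 in Control and 0.176, 0.172 and 0.145 in g*Spns1*-cKO livers, 5.23-fold higher. *Samd9l* (chr6:3372257-3399572, minus strand, mm10), a restriction factor that blocks viral protein synthesis, rose from 9.67, 7.37 and 7.90 CPM to 27.0, 16.1 and 21.2 CPM (1.37 ± 0.19, edgeR adjusted p = 0.000493). *Trim30a*, which restrains NF-κB signalling, rose from 3.81, 5.78 and 4.27 CPM to 9.87, 8.65 and 7.43 CPM (0.90 ± 0.20, edgeR adjusted p = 0.00495). Neither overlapped.

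Smaller decreases were seen in *Ifi35*, *Rtp4* and *Parp9*. *Ifi35* was at 32.8, 35.7 and 28.4 CPM in Control and 26.3, 20.8 and 21.5 CPM in g*Spns1*-cKO livers (log2 fold change -0.50 ± 0.13, edgeR adjusted p = 0.0116). *Rtp4*, a receptor-trafficking protein that also restrains interferon signalling, was at 11, 13.3 and 12.7 CPM in Control and 9.92, 8.57 and 8.39 CPM in g*Spns1*-cKO livers (-0.46 ± 0.14, edgeR adjusted p = 0.0233). *Parp9*, an ADP-ribosyltransferase family member, was at 46.3, 49.5 and 51.3 CPM against 41.8, 33.9 and 34.1 CPM (-0.42 ± 0.11, edgeR adjusted p = 0.0139), but was 0.02 without TMM scaling. All 3 were separate between groups. *Parp9* shares 458 exon bases with *Dtx3l* on the opposite strand, and *Rtp4* shares 296 with *Gm45338*, so part of their reads is uncertain. *Bst2*, which encodes tetherin, had the highest level per kilobase of gene length, 272 CPM per kb in Control, and overlapped at 209, 290 and 236 CPM against 241, 134 and 165 CPM (-0.45 ± 0.22, edgeR adjusted p = 0.129). *Parp14*, *Xaf1* and *Ifi44* overlapped as well, with log2 fold changes of 0.16, -0.23 and 0.25, and *Parp14* passed without TMM scaling (0.60, adjusted p = 0.00199). The calls of *Ifi35*, *Parp9* and *Rtp4* were lost without the third g*Spns1*-cKO mouse (adjusted p = 0.0527, 0.0663 and 0.0964), and that of *Rtp4* also without Control mouse 2 or 3 or g*Spns1*-cKO mouse 2 (0.0595 to 0.0708). Without TMM scaling *Ifi35* (-0.06) and *Rtp4* (-0.02) did not pass either, nor did *Rtp4* (adjusted p = 0.0774) or *Parp9* (0.0509) with upper-quartile scaling, whereas *Bst2* passed without g*Spns1*-cKO mouse 1 (-0.72, adjusted p = 0.00547) and when all genes with at least 1 count in any library were kept (0.0069).

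**Figure D2:**
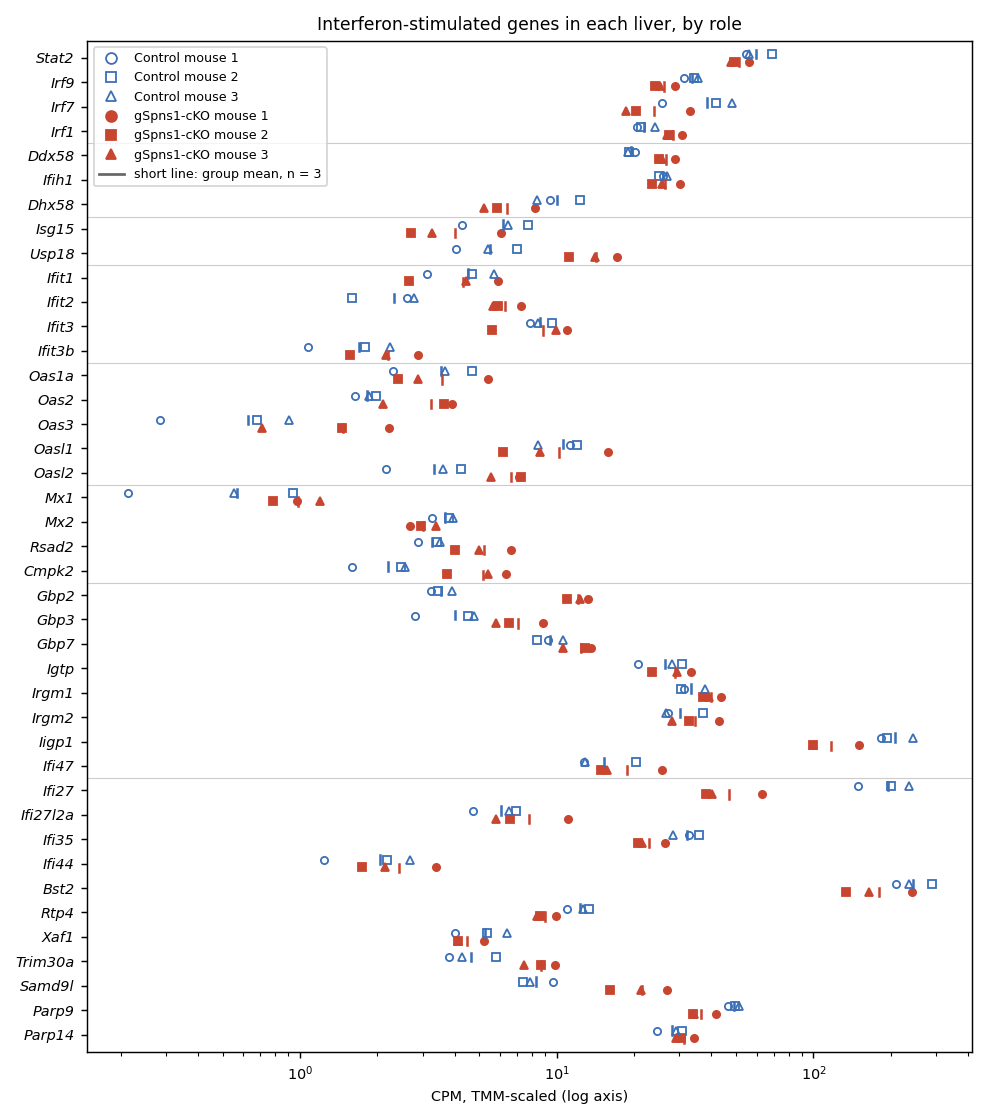
Scaled CPM (log axis) of each of the 41 genes in each liver, grouped by role between grey lines, with open blue symbols for Control and filled red symbols for g*Spns1*-cKO mice and short lines for the group means (n = 3). *Gbp2*, *Usp18*, *Ifit2* and *Samd9l* lie wholly to the right in g*Spns1*-cKO livers and *Ifi27* and *Iigp1* wholly to the left.

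Members lying within 1 Mb of each other formed 11 chromosomal groups. In 5 of the 11 all members shared a call. *Rsad2* and *Cmpk2* were both higher, *Dhx58* and *Ifi35* both lower, and *Irgm1* with *Ifi47*, *Igtp* with *Irgm2* and *Mx1* with *Mx2* passed in neither direction. In the other 6 the calls differed. The spread of log2 fold changes within a group was 0.0205 for *Irgm1* and *Ifi47*, 0.0696 for *Igtp* and *Irgm2*, 0.145 for *Dhx58* and *Ifi35*, and 0.553 for *Rsad2* and *Cmpk2*. It was 0.58 for *Parp14* and *Parp9*, 1.04 for *Oasl2* and *Oasl1*, and 1.07 for *Mx1* (0.77) and *Mx2* (-0.29), which had opposite signs. In the OAS, GBP and IFIT groups it was 1.23, 1.39 and 1.49, and for *Ifi27* and *Ifi27l2a* 2.41. Further count ratios within a library, which need no scaling between libraries, are given for pairs that had moved apart. The *Gbp2* to *Gbp7* ratio was 0.35, 0.412 and 0.368 in Control and 0.967, 0.849 and 1.16 in g*Spns1*-cKO livers. *Oasl2* to *Oasl1* was 0.191, 0.354 and 0.427 against 0.448, 1.18 and 0.640, and *Cmpk2* to *Rsad2* was 0.556, 0.724 and 0.730 against 0.958, 0.935 and 1.09. The gene with the more positive log2 fold change was the numerator in each, so the direction of these ratios was set by that choice.

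**Figure D3:**
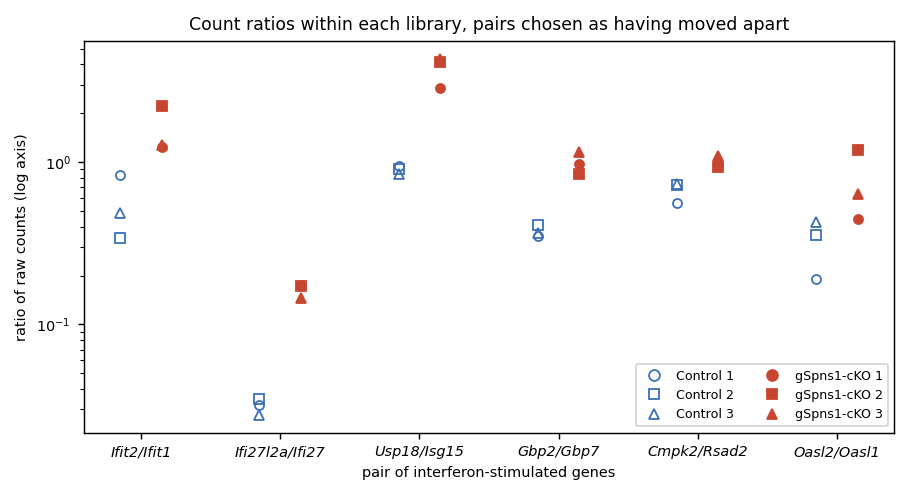
Ratio of raw counts of 6 pairs of related genes (log axis) in each Control (open blue) and g*Spns1*-cKO (filled red) liver. The pairs were chosen because their genes had moved apart, with the gene of the more positive log2 fold change as numerator. Mean ratios of *Ifi27l2a* to *Ifi27* were 0.0314 in Control and 0.164 in g*Spns1*-cKO livers.

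The members at high and at low levels differed in the direction of their calls. The 10 members with the highest mean level per kilobase (8.28 to 235 CPM per kb), among them *Bst2*, *Ifi27*, *Iigp1* and *Ifi35*, included 0 higher and 4 lower genes, with a median log2 fold change of -0.43. The 10 with the lowest (0.148 to 1.04 CPM per kb), among them *Rsad2*, *Cmpk2*, *Oasl2* and *Oas2*, included 4 higher and 0 lower, with a median of 0.72. Across the 41 genes, which share the same 6 libraries and are not independent, Spearman's rho between mean level per kilobase and log2 fold change was -0.583. Over all genes tested it was also inverse, at -0.44. The summed CPM of the 41 genes was 1023 to 1267 in Control and 779 to 1124 in g*Spns1*-cKO livers, and these ranges overlapped.

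The members varied together from mouse to mouse within a group. The first g*Spns1*-cKO mouse had the highest level of its group in 38 of the 41 genes, whereas it was highest in 39.3% of all genes tested. On the log2 scale it exceeded the other two g*Spns1*-cKO mice by a median of 0.48 (range -0.23 to 1.11), against 0.0117 over all genes tested. The first Control mouse was the lowest Control in 31 of the 41, against 33.2% of all genes. The counts of calls were repeated without these mice. Leaving out the first g*Spns1*-cKO mouse gave 8 higher and 10 lower and a median of -0.002, beside 20.2% and 20.3% of all genes tested. Leaving out the first Control mouse gave 8 and 8 with a median of 0.0557, beside 18.2% and 17.9%. Leaving out both, an omission chosen after seeing the data, gave 8 higher and 10 lower and a median of -0.13, beside 19.8% and 19.5%. Leaving out the third g*Spns1*-cKO mouse gave 11 higher and 2 lower. Other genes shared the elevation of the first g*Spns1*-cKO mouse in part. It was highest of its group in 8 of 10 macrophage and Kupffer cell markers, 6 of 6 sinusoidal endothelial markers and 42 of 65 further interferon-stimulated genes, but in 0 of 4 neutrophil markers and 2 of 11 T and NK cell markers. It was also highest in 3 of 7 lipid-associated macrophage, 3 of 5 monocyte and 2 of 6 B and plasma cell markers. The counts were 1 of 5 for stellate cell, 0 of 5 for cholangiocyte and 1 of 7 for hepatocyte markers. The part of cell composition in the elevation of the first g*Spns1*-cKO mouse was not tested.

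**Figure D4:**
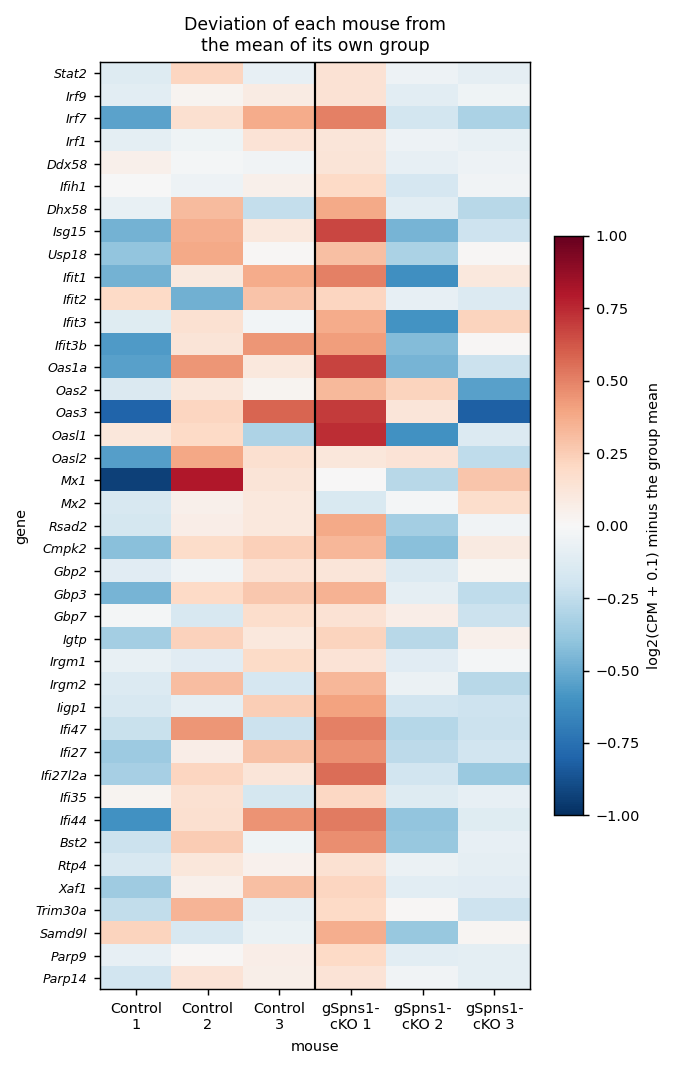
Deviation of each mouse from the mean of its own group (colour, log2 of CPM + 0.1) for the 41 genes (rows) in the 6 livers (columns). The first g*Spns1*-cKO column is almost entirely red, being the highest of its group in 38 of 41 genes, and the first Control column is mostly blue, being the lowest in 31.

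Upstream of these genes, transcripts of the interferons themselves were scarce. Of 21 interferon ligand genes only 3 had any count, and none held enough to be tested. *Ifnk*, an epithelial type I interferon, had 0, 3 and 1 counts in Control and 7, 5 and 4 in g*Spns1*-cKO livers. *Ifng*, the type II interferon, had 3, 0 and 0 against 2, 1 and 4, and *Ifnz* had 2 counts in 1 g*Spns1*-cKO liver. *Ifnb1* and all listed *Ifna* genes were at 0 counts in every library, and a count of 0 allows at most 0.0763 to 0.119 CPM per library (3 counts, for counting error only).

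Receptors and kinases changed unequally. Of 10 receptor, JAK and STAT genes, 4 were higher and 1 lower (40% and 10%, against 21.3% and 20.5% of all genes tested). *Ifngr1*, the ligand-binding chain of the type II receptor, rose from 405, 526 and 365 counts to 1152, 1252 and 1296 (log2 fold change 1.09 ± 0.11, edgeR adjusted p = 6.79e-05). *Ifnar2*, a chain of the type I receptor, had 1016, 1506 and 1119 counts in Control and 1085, 1080 and 1134 in g*Spns1*-cKO livers and was lower after TMM scaling (-0.57 ± 0.12, edgeR adjusted p = 0.0044) but not without it (-0.13, 0.41). *Il10rb* (1.2 ± 0.15) and *Ifnlr1* (2.59 ± 0.82), the chains of the type III receptor, and *Jak1* (0.38 ± 0.11) were higher, the second on 1, 0 and 10 counts against 26, 37 and 31. *Ifnar1*, *Ifngr2*, *Jak2*, *Tyk2* and *Stat3* did not pass, but without TMM scaling *Ifngr2* (0.66, adjusted p = 0.00738), *Jak2* (0.53, 0.00633), *Tyk2* (0.52, 0.00253) and *Ifnar1* (0.42, 0.00837) passed as higher. The *Ifnlr1* call was lost without Control mouse 1 or 2 or g*Spns1*-cKO mouse 2 or 3 (adjusted p 0.0644 to 0.0941, log2 fold change 1.95 to 5.32 over all single omissions), and that of *Jak1* without Control mouse 1 (0.0754) or g*Spns1*-cKO mouse 3 (0.081).

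Many receptors and adaptors that sense nucleic acids lead to interferon production. The list of nucleic acid sensing genes also held some with other roles, such as *Aim2*. Of 19 tested, 11 were higher and 2 lower, with a median log2 fold change of 0.80. These were 57.9% and 10.5%, against 21.3% and 20.5% of all genes tested. The increases included the endosomal receptors *Tlr9* (3.89 ± 0.92, on 0, 0 and 2 counts against 21, 12 and 13), *Tlr7* (2.77 ± 0.34) and *Tlr13* (2.52 ± 0.26), and the DNA sensor *Aim2* (2.03 ± 0.39). The adaptor *Myd88* (-0.64 ± 0.14) and the transcription factor *Irf3* (-0.43 ± 0.10) were lower, but neither passed without TMM scaling (-0.20, adjusted p = 0.241 for *Myd88* and 0.02, 0.911 for *Irf3*). Of 9 negative regulators, 33.3% were higher and 11.1% lower. *Ptpn2*, *Pias1* and *Trim24* were higher (0.55, 0.37 and 0.31, edgeR adjusted p = 0.02, 0.021 and 0.0477) and *Irf2* lower (-0.49, 0.0087). The *Trim24* call was lost in DESeq2 (0.0726) and on every single omission other than that of Control mouse 2 (0.0758 to 0.188), and the *Irf2* call without TMM scaling (-0.05, 0.745). *Pias1* did not pass without Control mouse 1 or 2 or g*Spns1*-cKO mouse 3 (0.0535 to 0.103), nor *Ptpn2* without Control mouse 3 (0.062) or g*Spns1*-cKO mouse 3 (0.0701).

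Further interferon-stimulated genes outside the list also changed in both directions. Of 65 tested, 17 were higher and 8 lower, with a median of 0.248. These were 26.2% and 12.3%, against 21.3% and 20.5% of all genes tested. The chemokine *Cxcl10* (2.02 ± 0.39), which attracts T cells, *Ifi207* (1.60 ± 0.17), *Slfn2* (1.60 ± 0.20) and *Epsti1* (1.54 ± 0.26) rose most. *Ube2l6*, the conjugating enzyme for ISG15, fell by 1.07 on the log2 scale, and *Ifitm3* (-0.77 ± 0.17), *Apol9b* (-0.67 ± 0.18) and *Ifitm2* (-0.67 ± 0.23) were lower too. *Ifitm2* overlapped between groups, with Control mouse 1 at 87.0 CPM and g*Spns1*-cKO livers at 86.8 to 88.8 CPM, and its call was lost in limma-voom (adjusted p = 0.0818) and on every single omission other than that of Control mouse 1 (0.118 to 0.149). Without TMM scaling *Ifitm3* (-0.33, adjusted p = 0.113), *Apol9b* (-0.22, 0.295) and *Ifitm2* (-0.22, 0.432) did not pass, nor did *Apol9b* without Control mouse 2 or 3 (0.0525 for each). Among 14 other interferon-inducible GTPases 6 were higher and 4 lower (42.9% and 28.6%). *Gbp8* (2.57 ± 0.25), *Tgtp1* (1.69 ± 0.46), *Tgtp2* (1.54 ± 0.31) and *Gbp9* (1.53 ± 0.20) were higher, and *Gbp10* (-1.66 ± 0.43), *F830016B08Rik* (-1.34 ± 0.23), *Gbp2b* (-1.17 ± 0.41) and *Gm4951* (-0.53 ± 0.16) lower. Without TMM scaling *Gbp2b* (-0.72, adjusted p = 0.156) and *Gm4951* (-0.08, 0.651) did not pass. *Gbp2b* was also lost with a replicate block (0.0777) and without Control mouse 1 or 3 or g*Spns1*-cKO mouse 1 or 3 (0.0711 to 0.142), *Gm4951* without Control mouse 3 or g*Spns1*-cKO mouse 2 or 3 (0.0625 to 0.0838), and *Tgtp1* without Control mouse 2 (0.056). Several of these GTPases are close copies of one another, and the division of reads among them is uncertain.

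Markers of several liver cell types changed along with these genes, and they are given for comparison. Over all genes tested, 21.3% were higher and 20.5% lower. Of 10 macrophage and Kupffer cell markers 9 were higher, and their summed level was 171 to 286 CPM in Control and 585 to 851 CPM in g*Spns1*-cKO livers. All 7 markers of lipid-associated macrophages were higher (72.3 to 89.2 against 611 to 767 CPM summed), as were 4 of 5 monocyte markers and 3 of 4 neutrophil markers tested. T and NK cell markers were at 5.41 to 6.11 CPM summed in Control and 9.03 to 9.72 CPM in g*Spns1*-cKO livers, with 5 higher and 1 lower of 11. Of 6 B and plasma cell markers, 1 was higher and 0 lower (18.6 to 25.6 against 42.7 to 61.7 CPM summed). Of 7 hepatocyte markers, 4 were lower and 0 higher (102482 to 117026 against 59504 to 72042 CPM summed). Endothelial (4 of 6), stellate (5 of 5) and cholangiocyte (5 of 5) markers were higher. *Spp1* is in both the cholangiocyte and the lipid-associated macrophage list and was counted in each. Plasmacytoid dendritic cell markers were scarce, with *Siglech* at 3 to 18 counts and only *Tcf4*, which other cells also express, tested. The part of these cell types in the changes of the interferon-stimulated genes was not tested.

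**Figure D5:**
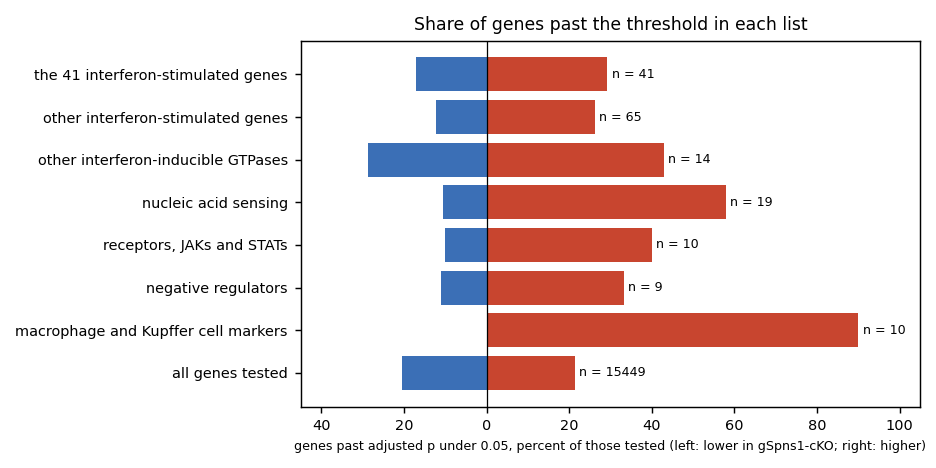
Percent of tested genes called lower (blue, to the left) or higher (red, to the right) in g*Spns1*-cKO than in Control livers for each gene list (threshold on the adjusted p 0.05), with the number tested. The 41 interferon-stimulated genes (29.3% higher, 17.1% lower) lie near all genes tested (21.3% and 20.5%), whereas 90% of the macrophage and Kupffer cell markers were higher.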

How the data were processed

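Poly(A) RNA of 6 livers was sequenced by a commercial service. The submitters' processing notes name fastp, HISAT2 2.0.5, featureCounts 1.5.0-p3 and the mm10 build, and the strand setting of the counting is not given in the sources used here. The authors deposited raw read counts per gene and library, which were used as they are, together with FPKM, group means, and their own fold changes and p-values, none of which was used. Other columns that the authors deposited, such as gene length, served only for levels per kilobase.

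The members, gene lists and tests were chosen with earlier results of these data known. Counts were fitted for all genes passing filterByExpr with edgeR 4.0.16 (TMM scaling, robust quasi-likelihood test, Benjamini-Hochberg adjustment, R 4.3.3), after a test on simulated data. Mean ± SD refers to TMM-scaled CPM and ± of a log2 fold change to its SE. The p-values set the difference between groups against the spread between these mice, which the test moderates for each gene with information from all genes. All 41 members could be named, as could every detected ligand, receptor, JAK and STAT (1 gene of that list is not reported here), and the 4 largest changes in each direction of the other lists. Alternatives were DESeq2 1.42.0, limma-voom (limma 3.58.1), 3 other scalings, 2 count filters (at least 1 count in any library or at least 10 in every one), protein-coding genes only, stricter thresholds, a replicate block and omission of each mouse. Shared bases and 50-base words were counted in GENCODE M21, whose coordinates were those of the table for 40 of the 41 genes.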

Additional observations from a re-analysis of the deposited data

How the results depend on the processing

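For the 41 members, 694 single-gene results under the alternatives were compared with the first test. Of these, 578 kept their direction and side of the threshold, 63 fell below it, 20 newly passed it and 33 changed sign. The stricter adjusted p and the 2-fold limit (41 results each) moved the cut-off of the same fit, so they could only remove calls. They made up 9 and 13 of the 63. DESeq2 size factors and protein-coding genes only changed none. Without TMM 20 members were higher and 1 lower (median 0.628), and upper-quartile scaling left 3 lower. At an adjusted p under 0.01, 2 were lower, and with at least a 2-fold change 5 were higher and 1 lower. Without single mice, the first pair included, 8 to 11 were higher and 2 to 10 lower, with medians of -0.127 to 0.281. Log2 fold changes of genes that changed sign are given over omissions of a single mouse only, without the pair. They were -0.0675 to 0.48 for *Ifi44*, -0.00834 to 0.54 for *Ifi47*, -0.0886 to 0.1 for *Ifih1* and -0.34 to 0.2 for *Ifit1*. For *Ifit3* they were -0.16 to 0.28, for *Igtp* -0.0461 to 0.25 and for *Oas1a* -0.43 to 0.24. *Oasl1* had -0.52 to 0.21, *Ifnar1* -0.0959 to 0.0398 and *Stat3* -0.3 to 0.15. Without TMM, signs changed for *Ifit1* (0.39), *Ifnar1* (0.42), *Irf3* (0.0157), *Irf9* (0.0734), *Mx2* (0.15), *Oas1a* (0.44), *Oasl1* (0.38), *Parp9* (0.023), *Stat2* (0.21), *Stat3* (0.36) and *Xaf1* (0.22). Upper-quartile scaling did so for *Ifit1* (0.0723), *Ifnar1* (0.11), *Oas1a* (0.12), *Oasl1* (0.066) and *Stat3* (0.0452), a minimum of 10 counts in every library for *Ifnar1* (0.0182) and *Oas1a* (0.0423), and limma-voom for *Ifit3* (-0.0304). The cause was not tested.

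Deviations of same-numbered mice from their group means showed little correlation over all genes (0.0371, 0.0331 and -0.0279, none over 0.1). With 3 mice per group this cannot exclude a pairing by litter or batch, as a small shared effect could be missed. A replicate block gave 10 higher and 7 lower members, without calls for *Oas2* and *Rsad2*, and *Ifit3* at -0.0148. With 3 mice per group, modest differences could pass unnoticed. Members under about 1 CPM, such as *Mx1* and *Oas3*, rest on few counts, and their intervals were wide (log2 fold change -0.18 to 1.73 and 0.22 to 2.23 at 95%).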
